A study of Ciona robusta with 9 samples.

Results

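The subject here is a set of 8 regulators of the nervous system, so named by the list that chose them, in embryos of the ascidian Ciona robusta that carried the notochord factor Brachyury (Bra) under foreign regulatory DNA. They are the gene models KH.C6.128 (Etr1, also called Celf3.a), KH.C6.129 (Neurog), KH.C4.84 (Otx), KH.L24.10 (Ebf), KH.C6.185 (Onecut), KH.C10.150 (Pax3/7), KH.C2.42 (Pou4) and KH.L152.2 (Islet). They were picked by ID, with earlier results of these data known, and all 8 were found among the 15284 models measured. The names belong to that list: the deposited tables give only IDs, and the gene table at hand (21486 genes) matched 0 of them, so each name is an assumption tied to its ID.

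RNA was sequenced from whole embryos of Hotta stage 19.5, raised at 21 °C, with 400 embryos in a sample. There were 9 libraries in 3 groups of 3. Control embryos had been electroporated at the fertilized egg with Bra>GFP, a reporter for the regulatory DNA of Bra. Etr1>Bra embryos carried Etr1>Venus-Bra, which places a Venus-tagged Bra under regulatory DNA of the neural gene Etr1. Tbx6-r.b>Bra embryos carried Tbx6-r.b>Venus-Bra, with regulatory DNA of a gene of the tail muscle. The labels call the replicates biological and give no strain and no source of eggs. P-values therefore cover only the spread between these samples, which may be technical. Neither driver was tested with a cargo other than Bra, so a difference from control cannot be assigned to Bra alone. Libraries held 9043181 to 10399304 reads on genes. The libraries of the groups share replicate numbers and were compared in pairs of the same number, since those deviated from their group means together (r of 0.48 to 0.72 across 11494 genes, which are not independent replicates).

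The ascidian tadpole has a notochord, a dorsal nerve cord with a sensory vesicle and motor ganglion, and rows of tail muscle, all laid down by factors that act in a fixed order. Neural fate begins with patterning factors such as Otx and Pax3/7, passes through proneural and differentiation factors such as Neurog, Ebf and Onecut, and ends with factors of particular neurons such as Pou4 and Islet. Bra does the corresponding work in the notochord. Plasmids put into the egg by electroporation reach only part of the cells of an embryo, and the share differs between batches of eggs.

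As a check of the constructs, the model assumed to be Bra, KH.S1404.1, was read out in every library. Control replicates 1, 2 and 3 had 359, 352 and 305 normalized counts (reads divided by a size factor per library), and the Etr1>Bra libraries had 481, 429.7 and 563. The Tbx6-r.b>Bra libraries had 369.6, 469.5 and 321, against 355, 348 and 302 for the controls as scaled in that table. Each construct library was above the control of its number, and native and plasmid transcripts are counted together. For the muscle construct the margin was small in pairs 1 and 3. Before scaling, these had 350 reads against 348 in control and 344 against 321. Whether these margins exceed counting error was not tested. The difference was not called without a pairing term for either construct (limma adjusted p = 0.287 for the neural construct and 1 for the muscle construct). A block for the replicate number brought the call for the neural construct (adjusted p = 0.0436) and not for the muscle construct (0.852).

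With Etr1>Bra, the neural regulators were lower than control in replicates 2 and 3 and near control in replicate 1. All 8 were below the control of the same number in pairs 2 and 3, each by more than counting error allows, as were 11.4% of all genes tested in pair 2 and 17.5% in pair 3. In pair 1, 5 were below and 3 above, and for 6 of the 8 the exact 95% binomial interval of the ratio, which covers counting error only, included 1. The interval lay below 1 in pair 1 for 1 of the 8, against 15.1% of all genes. More reads narrow such an interval, and the genes behind these shares were not matched to the 8 for reads. Over the 8 genes, pairs 1, 2 and 3 had median log2 changes of −0.02, −0.55 and −1.24, where the medians over all 11514 genes tested were −0.01, −0.01 and −0.02. In these whole-embryo libraries, fewer cells of a type and less RNA per cell cannot be told apart.

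**Figure D1:**
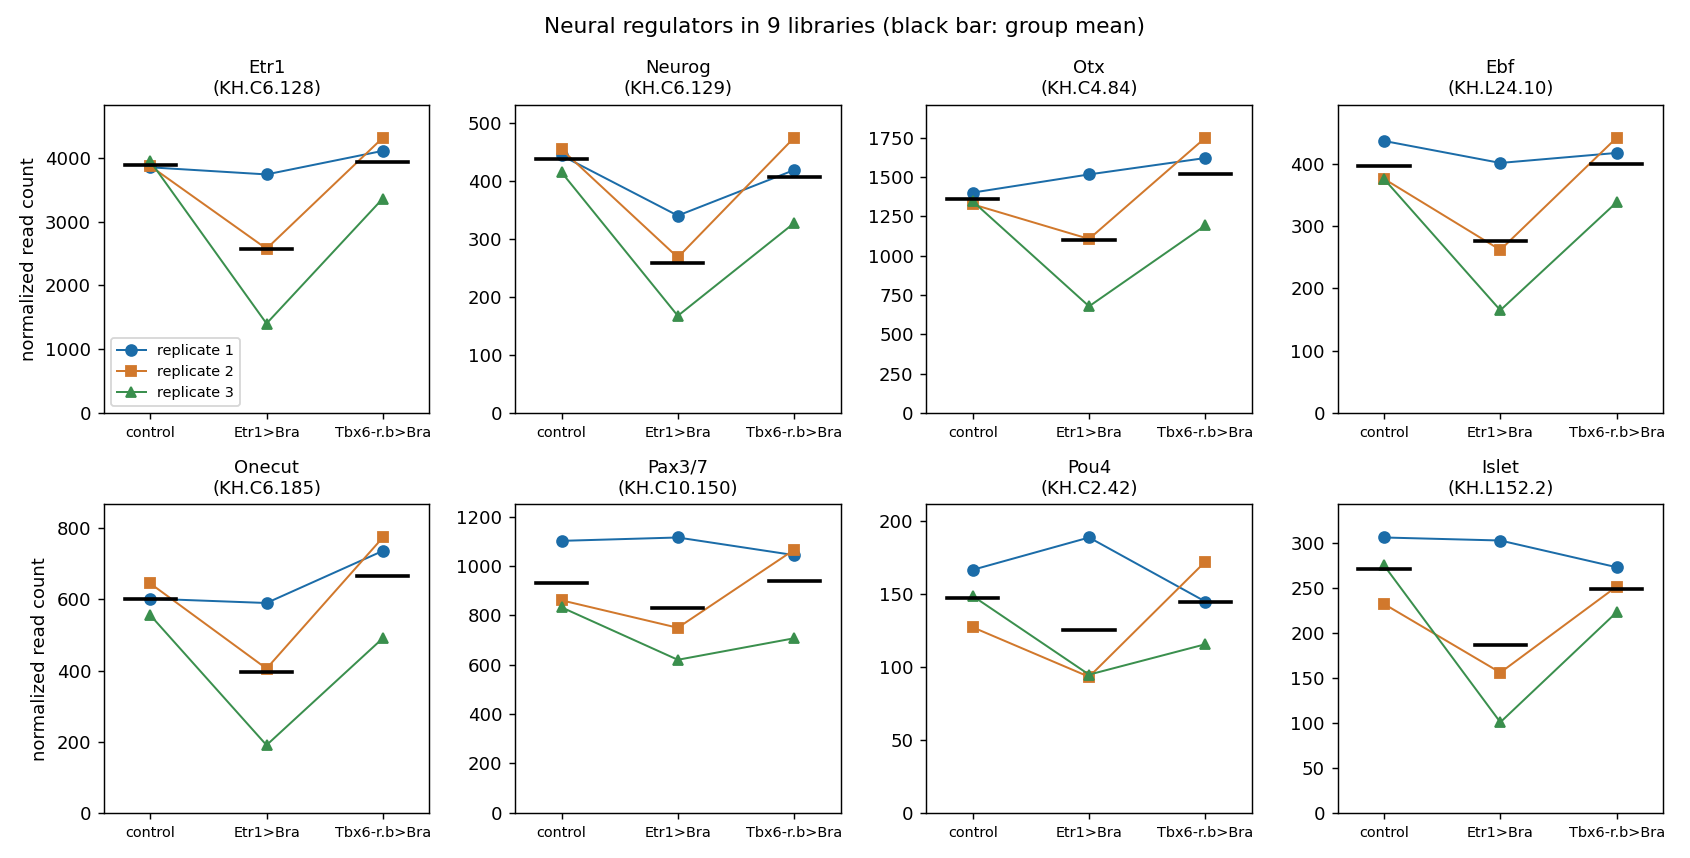
Normalized read counts (9 libraries scaled together, vertical axis from 0) of the 8 genes in the control, Etr1>Bra and Tbx6-r.b>Bra groups; points of the same replicate number are joined by a line and black bars are group means of 3 libraries. In each panel the Etr1>Bra group has the lowest mean, and its replicate 1 lies above replicates 2 and 3.

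Etr1, an RNA-binding protein of the Celf family and a general marker of the ascidian nervous system, is also the gene whose regulatory DNA drives the construct. KH.C6.128 stood at 3908, 3935 and 4008 in control replicates 1, 2 and 3 and at 3791, 2614 and 1425 with Etr1>Bra. The coefficient of variation (SD over mean) was 1.30% in the controls and 45.3% in the Etr1>Bra libraries, and the groups did not overlap. The ratio to control was 0.970 (0.927 to 1.02) in pair 1, 0.664 (0.632 to 0.698) in pair 2 and 0.356 (0.335 to 0.378) in pair 3. In pair 3 only 0.573% of the genes tested had a change as low or lower. The mean log2 change of −0.71 ± 0.30 (SE) was not called (limma adjusted p = 0.69, and 0.0849 with the replicate number as a block).

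Of the patterning factors, Otx specifies anterior neural territory and Pax3/7 marks the border of the neural plate and the dorsal nerve cord. Otx stood at 1422, 1349 and 1367 in control and at 1538, 1123 and 689 with Etr1>Bra. Pair 1 was thus above control, with a ratio of 1.08 (1.004 to 1.17), and pair 3 was at 0.504 (0.460 to 0.553). Pax3/7 stood at 1118, 875 and 846 in control and at 1131, 761 and 629.8 with Etr1>Bra. Its replicate 1 was the highest library in both groups, the groups overlapped, and its ratios of 1.01, 0.869 and 0.745 in pairs 1, 2 and 3 gave the smallest mean change of the 8 genes. The log2 changes were −0.38 ± 0.25 for Otx and −0.20 ± 0.22 for Pax3/7, neither called with or without the block (adjusted p of 0.314 to 1).

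Neurog, a proneural factor, was below control in every pair by more than counting error. It stood at 451, 463 and 422 in control and at 346, 273 and 171 with Etr1>Bra, so that every Etr1>Bra library lay below every control. Its ratio was 0.766 (0.662 to 0.886) in pair 1, the only one of the 8 genes below control there by more than counting error. The later pairs had 0.589 (0.506 to 0.685) in pair 2 and 0.404 (0.337 to 0.483) in pair 3. The log2 change of −0.82 ± 0.24 was not called without the block (limma adjusted p = 0.313). With the block Neurog fell (adjusted p = 0.0125), as it did with the same block in edgeR (0.0105, with 0.4% of all genes called as lower) and DESeq2 (0.00496, with 0.182%). Leaving pair 2 out of the blocked fit ended this call (adjusted p = 0.293), in a fit that called 0 of all genes as lower. KH.C6.129 and KH.C6.128 carry consecutive numbers, and whether these models share reads was not tested.

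Ebf, a factor of neuronal differentiation, and Onecut, a cut-homeodomain factor of differentiating neurons, followed Etr1 closely. Ebf stood at 443, 382 and 381 in control and at 407, 266 and 168 with Etr1>Bra. Onecut stood at 611, 656 and 565 in control and at 598, 412 and 193 with Etr1>Bra. Their pair 3 ratios were 0.439 (0.365 to 0.527) and 0.343 (0.290 to 0.403), the latter the lowest of the 8 genes in any pair. In both genes Etr1>Bra replicate 1 lay inside the range of the controls and replicates 2 and 3 below it. The log2 changes were −0.61 ± 0.28 for Ebf and −0.75 ± 0.35 for Onecut, and neither was called without the block (adjusted p = 0.819 for each) or with it (0.0789 and 0.0834).

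Pou4, a factor of sensory neurons, and Islet, a LIM-homeodomain factor found in several kinds of neuron and outside the nervous system, stood last in the order of roles. Pou4, the gene with the fewest reads of the 8, stood at 169, 129 and 151 in control and at 191, 94.6 and 96.2 with Etr1>Bra. With 94.6 to 191 normalized counts per library its ratios were loose, 0.732 (0.557 to 0.959) in pair 2 and 0.638 (0.490 to 0.826) in pair 3. Islet stood at 310.2, 236 and 279 in control and at 307, 158 and 102 with Etr1>Bra. Its ratio was 0.988 (0.838 to 1.17) in pair 1 and 0.366 (0.290 to 0.460) in pair 3. Islet in pair 3 was thus about as low against its control as Etr1, and the interval of Pou4 lay above that of both. The log2 changes of −0.30 ± 0.28 and −0.68 ± 0.35 were not called without the block (adjusted p of 1 and 0.911) or with it (0.477 and 0.126).

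**Figure D2:**
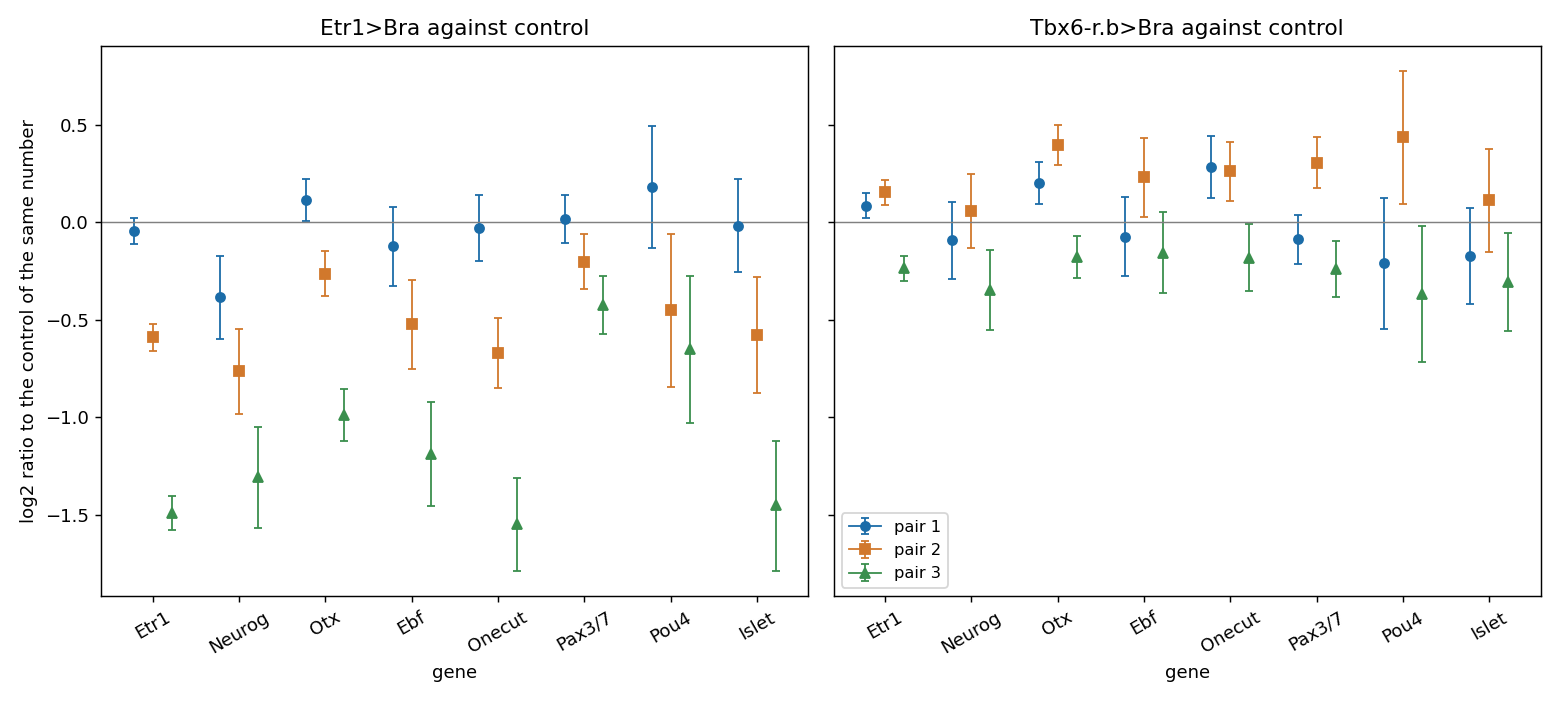
Log2 ratio of each gene to the control library of the same replicate number, for Etr1>Bra (left) and Tbx6-r.b>Bra (right); points are pairs 1, 2 and 3 and bars are exact 95% binomial intervals, which cover counting error only. With Etr1>Bra pair 3 is lowest for all 8 genes and pair 1 highest, while with Tbx6-r.b>Bra pair 2 is above 0 and pair 3 below 0 for all 8.

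Counted over the 8 genes, limma without the block called 0 of them with Etr1>Bra, against 0.139% of all genes tested, and 2 had an unadjusted p under 0.05 (Etr1 and Neurog), as did 750 genes in all. The edgeR and DESeq2 tests without the block also called 0 of the 8, where of all 11514 genes they called 1 and 2 as lower. With the block 1 of 8 was called as lower, against 0.391% of all genes. In the blocked fit of all 9 libraries, 4 were called as lower (Etr1, Neurog, Ebf and Onecut), against 0.731%. Without replicate 1, the blocked fit called 7 as lower, every gene but Pax3/7, against 2.83%, on 2 libraries a group. In that fit limma took the spread of each gene almost wholly from all genes at its level. How these genes varied between pairs thus hardly entered its p-values. Without replicate 2 the blocked fit called 0 of the 8, and it called 0 of all 11485 genes tested as lower. In the unblocked fit, leaving out Etr1>Bra replicate 1 gave log2 changes of −0.44 (Pax3/7) to −1.11 (Onecut) and leaving out Etr1>Bra replicate 3 gave −0.02 (Pax3/7) to −0.53 (Neurog), with 0 of the 8 called either way. The groups did not overlap for 2 of the 8 genes, Etr1 and Neurog, against 3.78% of all genes in that direction. All 3 pairs were lower for 5 of the 8, against 17.9%.

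The pairs were also read out in the genes that the muscle construct raised. Over 336 genes that were called as higher with Tbx6-r.b>Bra in the blocked fit and could also be tested with Etr1>Bra, pairs 1, 2 and 3 with Etr1>Bra had median log2 changes of 0.72, 1.08 and 1.87, so that pair 3, where the neural genes were lowest against control, had the highest median. The medians of 341 such genes with Tbx6-r.b>Bra were 0.88, 1.34 and 1.03, and in pair 2, which had the highest, all 8 neural genes were above control. Those genes were chosen against the same controls and share them with the neural ratios, so these medians are partly set by the choice. Among the 8 neural genes themselves the order held from pair to pair in part: across the 8 genes, which are not replicates, the changes of pairs 2 and 3 correlated at 0.80 (Spearman 0.833), and those of pairs 1 and 3 at 0.456 (Spearman 0.548). KH.S1404.1 was also highest in Etr1>Bra replicate 3, at 563, though it was lower in replicate 2 than in replicate 1. The part of plasmid uptake or Bra level in the differences between pairs was not tested.

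**Figure D3:**
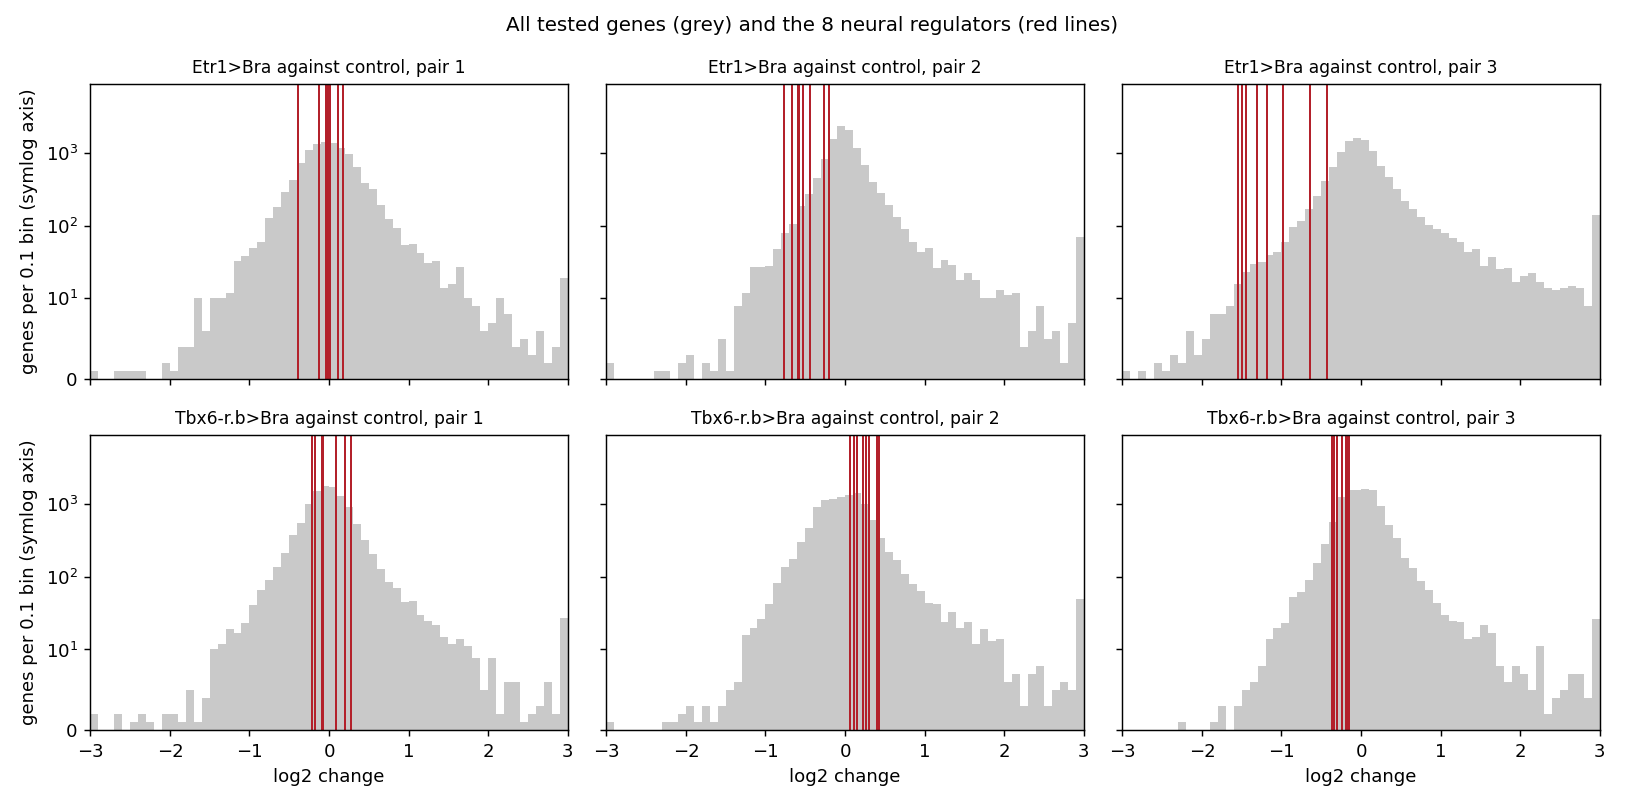
Number of genes per 0.1-wide bin of log2 change against the control of the same number, for all tested genes (grey, symlog axis, values beyond 3 counted in the outermost bins), with the 8 neural regulators as red lines; rows are constructs and columns are pairs. With Etr1>Bra the red lines lie between −0.38 and 0.18 in pair 1 and between −1.54 and −0.42 in pair 3, where 10.7% of all genes lie at or below the highest of them, Pax3/7. With Tbx6-r.b>Bra they lie between −0.36 and 0.43 in all pairs, and the lowest of them, in pair 3, is Pou4, with 7.77% of all genes at or below it.

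With Tbx6-r.b>Bra, the regulatory DNA of a muscle gene, the neural regulators stayed close to control on average and none was called. The mean log2 changes lay between −0.13 (Neurog) and 0.14 (Otx), with a median of −0.003 over the 8 genes and −0.02 over all 11445 genes tested. Limma called 0 of the 8 without the block, against 0.533% of all genes, and 0 with it, against 3.9%. None of the 8 had an unadjusted p under 0.05 in limma without the block, against 484 genes in all. In edgeR and DESeq2 without the block 0 were called as well, against 66 and 140 of all genes. With the block these tests called 0 too, against 444 and 226. A missed threshold does not show that levels were alike: the 95% interval of the log2 change ran from −0.29 to 0.29 for Etr1 and from −0.48 to 0.23 for Neurog.

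The pairs differed in direction with Tbx6-r.b>Bra. Etr1 stood at 3871, 3892 and 3968 in control, as scaled in that table, and at 4105, 4329.9 and 3372 with the construct. Otx stood at 1409, 1334 and 1353 in control and at 1620 (1619.7), 1756 and 1196 with the construct. Pairs 1 and 2 were above control and pair 3 below for both genes. Onecut behaved likewise, at 605, 649 and 559 in control and 736, 777 and 492 with the construct. Over the 8 genes, 3 were above control in pair 1, 8 in pair 2 and 0 in pair 3. Counting error did not cover the ratio for 6 of the 8 in pair 2, where 20.9% of all genes tested were above control by more than counting error, and for 7 of the 8 in pair 3, where 18.4% were below by as much.

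For the other 5 genes counting error covered the ratio in pair 1, and the signs in pairs 2 and 3 were those of the first 3 genes. Neurog stood at 447, 458 and 418 in control and at 419, 477 and 329 with Tbx6-r.b>Bra. Ebf stood at 439, 378 and 378 in control and at 417, 443 and 339 with the construct. Pax3/7 stood at 1108, 866 and 837 in control and at 1043, 1069 and 709 with the construct. In these 3 genes the construct's replicate 3 was its lowest library, and the groups overlapped. Pou4 stood at 167, 128 and 149 in control and at 145, 173 and 116 with Tbx6-r.b>Bra. Islet stood at 307, 233 and 276 in control and at 272, 252 and 223 with the construct. Among the 8 genes Pou4 had the highest ratio in pair 2, 1.35 (1.07 to 1.71), and the lowest in pair 3, 0.776 (0.608 to 0.987). Of all genes tested, 10.6% lay at or above Pou4 in pair 2 and 7.77% at or below it in pair 3.

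The constructs were then compared with each other, which leaves the shared controls out. On reads rescaled together, all 8 genes had a higher mean with Tbx6-r.b>Bra than with Etr1>Bra, by log2 differences of 0.20 (Pax3/7) to 0.87 (Onecut) with a median of 0.59, where the median over all 11514 genes was −0.005. Without the block limma called 0 of the 8, and 0% of all genes. Etr1, Neurog and Onecut had an unadjusted p under 0.05, as did 350 genes in all, and edgeR called 0 genes and DESeq2 39, none of them among the 8. With the replicate number as a block, 5 of the 8 were higher with Tbx6-r.b>Bra (Etr1, Neurog, Otx, Ebf and Onecut), against 0.877% of all genes in that direction. In the blocked fit of all 9 libraries, 2 were called (Neurog and Onecut), against 0.348%, and the calls of Etr1 (adjusted p = 0.0561), Ebf (0.0854) and Otx (0.121) were lost. The blocked edgeR test called 5, against 0.782%, and the blocked DESeq2 test 1, Onecut, against 0.0608%.

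Onecut showed the widest difference. On the joint scale its Etr1>Bra libraries had 584, 400.5 and 187 and its Tbx6-r.b>Bra libraries 728, 764 and 485. The blocked fit gave a log2 difference of 0.87 ± 0.17 (adjusted p = 3.54e-05, and 1 without the block). Etr1 had 3704, 2543 and 1375 in the former libraries and 4059, 4255 and 3321 in the latter, a difference of 0.72 ± 0.16 (blocked adjusted p = 0.000552). Neurog differed by 0.70 ± 0.18 (0.0052), Ebf by 0.62 ± 0.18 (0.0225) and Otx by 0.53 ± 0.16 (0.0422). All 5 were higher with Tbx6-r.b>Bra in each of the 3 pairs, against 9.52% of all genes. In pair 1 counting error covered the ratio for Otx (1.07, 0.991 to 1.15) and Ebf (1.04, 0.899 to 1.20). It did not cover the ratio for Etr1, Neurog and Onecut. The size also differed: for Etr1 the log2 differences of pairs 1, 2 and 3 were 0.13, 0.74 and 1.27. For this comparison limma gave every gene the same spread at a given level, so the differing sizes between pairs do not enter these p-values.

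Islet, Pou4 and Pax3/7 were not called between the constructs. Islet had 299, 154 and 98.5 in the Etr1>Bra libraries and 269, 248 and 220.0 in the Tbx6-r.b>Bra libraries. Its difference was 0.56 on the log2 scale (95% interval 0.19 to 0.93 in the blocked fit, adjusted p = 0.0873). Pou4 differed by 0.26 (−0.13 to 0.66) and Pax3/7 by 0.20 (−0.12 to 0.52). In pair 1 these 3 genes were lower with Tbx6-r.b>Bra than with Etr1>Bra, and in pairs 2 and 3 they were higher. Of these pair 1 ratios, only that of Pou4 was lower by more than counting error (0.765, 0.608 to 0.961). Without replicate 1 the blocked fit called 2 of the 8, Etr1 and Onecut, against 0.434% of all genes. Without replicate 2 it called 0 of the 8, and 0 of all 11468 genes tested. Without replicate 3 it called 0 of the 8, where 25 of 11436 genes were called as higher.

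**Figure D4:**
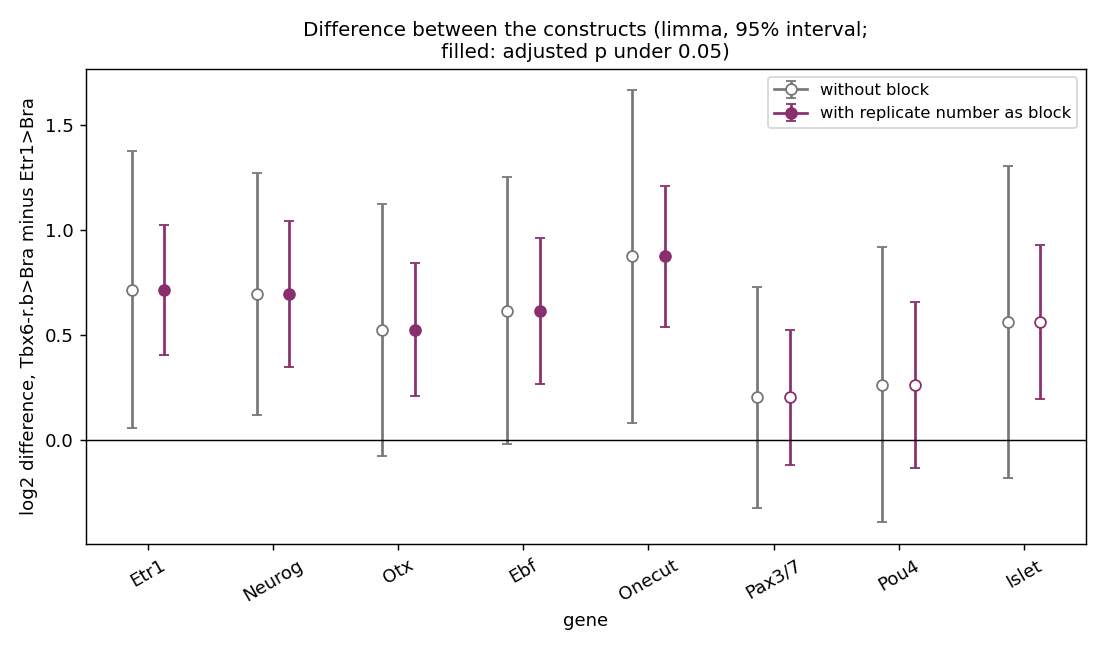
Log2 difference between the constructs (Tbx6-r.b>Bra minus Etr1>Bra) for the 8 genes, from limma without (grey) and with (purple) the replicate number as a block; bars are 95% intervals and filled points have an adjusted p under 0.05 over all genes. All 8 differences are above 0, and filled points appear with the block only, for Etr1, Neurog, Otx, Ebf and Onecut.

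The order of group means was alike across the genes. On the joint scale Etr1>Bra had the lowest mean for all 8. Control and Tbx6-r.b>Bra came next in either order: Tbx6-r.b>Bra was the highest for Etr1, Otx, Ebf, Onecut and Pax3/7, and control for Neurog, Pou4 and Islet, and the libraries of these neighbouring groups overlapped in every gene. The lowest group did not overlap with its neighbour for Etr1 only, at 2572 ± 1168 with Etr1>Bra (mean ± SD, n = 3) and 3889 ± 50.0 in control. Etr1 did overlap between the constructs, at 3739 in Etr1>Bra replicate 1 and 3361 in Tbx6-r.b>Bra replicate 3. For Neurog, Etr1>Bra (259 ± 86.9) overlapped with Tbx6-r.b>Bra (408 ± 74.4) and not with control (439 ± 20.5). How many of all genes had Etr1>Bra lowest, or apart from its neighbour, on the joint scale was not counted, so neither is shown to be particular to these genes.

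The profiles of the 8 genes over the 9 libraries were alike to different degrees. Pearson's r of log2 levels, a description over libraries that share groups and replicate numbers, ran from 0.728 to 0.985 over the 28 pairs of genes, with a median of 0.905. Etr1, Neurog, Otx, Ebf and Onecut correlated with each other at 0.913 to 0.985, and Islet with these at 0.89 to 0.969. Pax3/7 and Pou4 correlated with each other at 0.906 and with the other 6 at 0.728 to 0.87. Among 7560 other genes with a mean of at least 100, Ebf ranked 4 in likeness to Etr1. Of the 7 other neural genes, 5 were within the first 100 for Etr1, and Pou4 was farthest at rank 176. For Neurog, Otx, Ebf, Onecut and Islet, 5 or 6 were within the first 100. For Pax3/7 only 1 was, and for Pou4 only 2, with Neurog farthest at ranks 692 and 564.

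Outside the list, the gene models most like Etr1 were KH.C9.68 (r = 0.991) and KH.C3.716 (r = 0.99), for which no name is at hand. KH.C9.68 stood at 267, 230.0 and 238 in control, at 230.4, 129.9 and 66.4 with the neural construct and at 258, 294.5 and 215 with the muscle construct. Etr1>Bra replicate 1 lay at the lower end of the control range and replicate 3 was the lowest of the 9. Replicate 3 was also the lowest Etr1>Bra library of 7 of the neural genes, but not of Pou4, whose lowest was replicate 2.

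**Figure D5:**
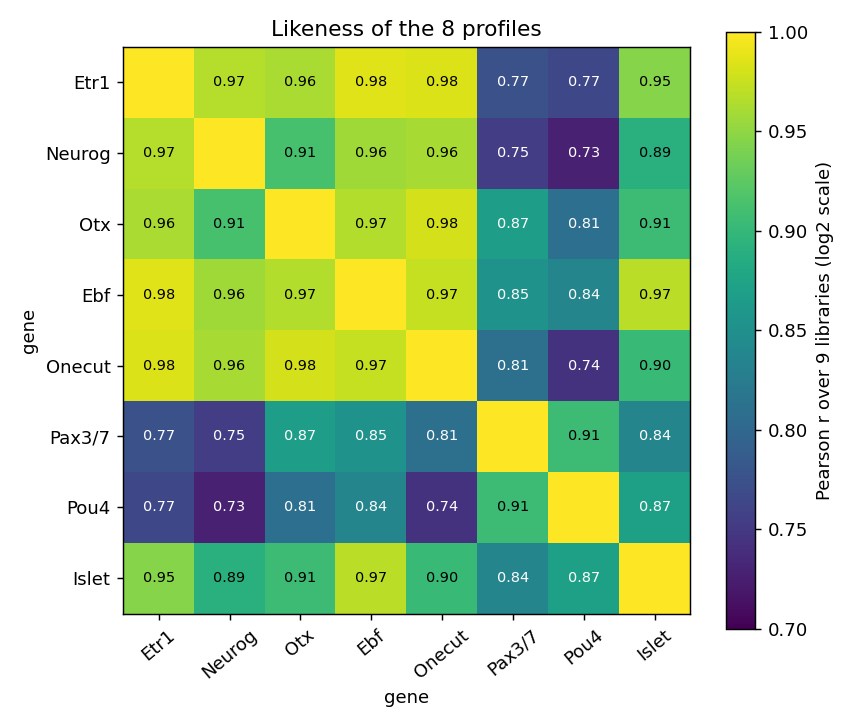
Pearson correlation of log2 levels over the 9 libraries between each pair of the 8 genes (colour scale from 0.7 to 1). Etr1, Neurog, Otx, Ebf, Onecut and Islet form a block of high values, and Pax3/7 and Pou4 are most like each other.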

How the data were processed

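Whole embryos gave 9 stranded mRNA libraries, per the labels' protocols. The authors deposited 1 table per Bra construct on KH2012 gene models. It holds a non-negative signal, counts that the authors scaled by library size per the file headers, and next to it deposited regularized log2 values. Per the submitters' processing notes, the tools included TopHat2 2.9.8b and DESeq 1.8.1. Which program counted reads, with what strand setting and on which build, is not given in the sources used here. Overlapping, antisense and near-identical genes may share reads.

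Each library's deposited normalized values were multiples of a single step (100% whole, tolerance 0.01), and dividing by it gave back the reads. Control reads were the same in both tables (0 values differing). The tables were scaled apart. Comparisons with control used each table's own values, and the constructs were compared on recovered reads rescaled by median of ratios. Genes with a mean of at least 10 were tested with limma 3.58.1 (R 4.3.3; intensity trend; log2(value + 1), which understates changes of low genes), two-sided, with Benjamini-Hochberg adjustment over all genes and calls at an adjusted p under 0.05. All 8 members passed the filter. Alternatives used edgeR 4.0.16 and DESeq2 1.42.0 on recovered reads, other pseudocounts, filters and scalings, and the replicate number as a block. Limma with and without the block, and edgeR and DESeq2 without it, were tested on simulated data. The other fits were not.

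Nothing in the labels says that replicate numbers mark shared eggs. Libraries of the same number, though, deviated from their groups' means alike (r of 0.475 to 0.719). The numbers were taken to pair the libraries, and blocked values are given beside a result where they bear on its call. Read ratios carry exact 95% binomial intervals.

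The members, lists and tests were chosen with earlier results of these data known. All 8 members are named in every comparison. For likeness, the 2 other genes with the highest r to KH.C6.128 are named. Lists of further neural, notochord, muscle, epidermal and endodermal markers held names only and could not be matched to the IDs, so they were not used here. Levels are not compared between genes, since no gene lengths were used. No sequences are shown, since none of these IDs could be matched.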

Additional observations from a re-analysis of the deposited data

Results flagged for a closer look

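The responses to the constructs differed for 5 of the 8 genes by the blocked limma test between Tbx6-r.b>Bra and Etr1>Bra. Of all genes tested, 0.877% were called as higher with Tbx6-r.b>Bra in that fit. It gave every gene the same spread at a given level, so sizes that differed between pairs did not enter its p-values. The log2 differences were 0.87 for KH.C6.185 (Onecut), 0.72 for KH.C6.128 (Etr1), 0.70 for KH.C6.129 (Neurog), 0.62 for KH.L24.10 (Ebf) and 0.53 for KH.C4.84 (Otx). Each was higher with Tbx6-r.b>Bra in 3 of 3 pairs, as were 9.52% of all genes. In pair 1 counting error covered the ratio for Otx and Ebf. Without the block none of them was called. With it, the limma fit of all 9 libraries called only Neurog and Onecut of the 8, against 0.348% of all genes as higher. The adjusted p of that limma fit was 0.0561 for Etr1, 0.0854 for Ebf and 0.121 for Otx. The blocked DESeq2 test called only Onecut, against 0.0608%. With 3 libraries per group, no library was tested for standing apart.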

How the results depend on the processing

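Without the block, none of the 8 genes was called in any comparison under any alternative run, single libraries left out included. With the replicate block the number of members called with Etr1>Bra was 1 in limma, 1 in edgeR, 1 in DESeq2 and 4 with all 9 libraries. These fits called 0.391%, 0.4%, 0.182% and 0.731% of all genes as lower. Between the constructs the members called were 5, 5, 1 and 2 in the same order. There 0.877%, 0.782%, 0.0608% and 0.348% of all genes were called as higher. Leaving out a replicate number in the block gave 0 to 7 with Etr1>Bra and 0 to 2 between the constructs. The calls over all genes moved as well. The fits without replicates 1, 2 and 3 called 326, 0 and 32 genes as lower with Etr1>Bra. Between the constructs they called 50, 0 and 25 as higher. Every log2 change with Etr1>Bra stayed below 0 in all alternatives run. Between the constructs only that of KH.C2.42 (Pou4) turned, to −0.044 in the block without replicate 2, in a range of −0.044 to 0.59 over the pairs left out.

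With Tbx6-r.b>Bra, uncalled changes near 0 turned sign: with TMM scaling KH.C6.128 (Etr1) to −0.0024 and KH.L24.10 (Ebf) to −0.0029, and KH.C10.150 (Pax3/7) to 0.0079 in edgeR and 0.0086 in DESeq2 without the block. Leaving out 1 library gave −0.072 to 0.11 for Etr1, −0.25 to 0.021 for Neurog, −0.078 to 0.11 for Ebf, −0.0029 to 0.33 for Onecut, −0.11 to 0.18 for Pax3/7 and −0.19 to 0.10 for Pou4. Leaving out a pair in the block gave −0.075 to 0.12 for Etr1, −0.11 to 0.078 for Ebf, −0.16 to 0.11 for Pax3/7 and −0.29 to 0.11 for Pou4. Without replicate 1 these fits gave −0.041 for Etr1, 0.033 for Pax3/7 and 0.034 for Pou4. The cause was not tested. Depth limits Pou4 most, with 94 reads in its lowest Etr1>Bra library.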
